A study of Mus musculus with 4 samples.

Results

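The genes described here carry the signal of type I interferon and of related cytokines into the nucleus. They are 9 genes named as such, Ifnb1, Ifnar1, Ifnar2, Jak1, Jak2, Tyk2, Stat2, Stat3 and Socs1, of 26246 named genes measured on the arrays. They were chosen by symbol and not by a cut on a measured value, but with earlier results of these data known. Each had 1 probe set and was tested. The study measured RNA of J774M, an established mouse line labelled as myeloid-derived suppressor cells, which are immature myeloid cells that dampen T cell responses. One group of 2 arrays came from cells cultured with 10 uM NC06 for 24 h, an inhibitor of neutral ceramidase, an enzyme that cleaves ceramide to sphingosine. The other group of 2 arrays came from control cells, and what these received is not given in the sources used here. All cells were grown in RPMI medium with serum, and the labels give no genotype or allele that differs between the groups.

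In this pathway interferon beta, the product of Ifnb1, binds a receptor made of the chains IFNAR1 and IFNAR2. The kinase TYK2 sits on the first chain and JAK1 on the second. They phosphorylate STAT proteins, and STAT2 then joins another STAT and IRF9 in a complex that binds interferon-stimulated response elements and induces antiviral genes. JAK2 serves other cytokine receptors, among them the interferon gamma receptor and the receptor of GM-CSF. STAT3 follows mainly the IL-6 and IL-10 receptor families. SOCS1 is induced by these signals and inhibits the kinases. In macrophages a low level of interferon beta is known to keep interferon-induced genes on without infection.

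The signal per probe set was a log2 array signal, with a median of 4.75 and 4.75 in NC06 and of 4.68 and 4.67 in control samples. Arrays of one group correlated at 0.995 over the genes, and arrays of different groups at 0.993 to 0.994. All 10 myeloid markers, Itgam and Csf1r among them, were above the array median on all arrays. All 10 also had both NC06 arrays above both control arrays, against 23.3% of all genes, and their median difference was 0.25 log2. At an unadjusted p under 0.05, 5 of the 10 were higher and 0 lower. Of all genes, 7.79% were higher and 7.52% lower at that p, the shares beside which each marker list is read. The summed linear signal of the 10 myeloid markers was 22950 to 23220 on the NC06 arrays and 17540 to 18270 on the control arrays. Of 8 T and NK cell markers and 5 B cell markers, 0 were above the array median on all arrays. Of the other lists, 4 of 10 neutrophil, 2 of 6 plasmacytoid dendritic cell and 4 of 7 fibroblast and epithelial markers were. The summed linear signal of 10 neutrophil markers was 805.2 to 876.1 on the NC06 arrays and 305.6 to 315.7 on the control arrays. Of these neutrophil markers 5 were higher and 1, Ngp, lower at that p. Mmp8, a neutrophil collagenase, had the largest difference of the 10 and read 8.52 and 8.38 log2 in NC06 cells, against 5.61 and 5.51 log2 in control cells. The groups overlapped in Camp, Elane, Mpo and S100a9, and the median difference of this list was 0.27 log2. At that p, 1 of 6 plasmacytoid dendritic cell, 2 of 8 T and NK cell and 3 of 7 fibroblast and epithelial markers were higher with 0 lower, and of the B cell markers 0 were higher and 1 lower. The part of these differences in the results below was not tested. In RNA from whole cultures, fewer cells of a type and less RNA per cell cannot be told apart. Nothing in the labels says that same-group arrays are separate cultures, and p-values therefore cover only the spread among these 4 samples, possibly a technical one.

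Of the 9 genes, Stat2 was lower on the NC06 arrays, Jak2 and Ifnb1 were higher at an unadjusted p under 0.05, and the other 6 had smaller differences. The differences were -0.65 log2 for Stat2, 0.42 for Jak2 and 0.55 for Ifnb1. None of the 9 genes passed limma's test at an adjusted p of 0.05 (Benjamini-Hochberg adjustment over all genes), which called 0 of 26246 genes (0%). At an unadjusted p under 0.05 it held 3 of the 9 genes, against 15.3% of all genes. The groups did not overlap in 7 of the 9 genes, against 47.7% of all genes. In 5 of these the NC06 arrays were higher, against 23.3% of all genes, and in 2 they were lower, against 24.4%. The median difference over the 9 genes was 0.057 log2, beside 0.0020 over all genes. For any single gene, an exact two-sided permutation test over 2 arrays against 2 cannot give a p below 0.333.

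**Figure D1:**
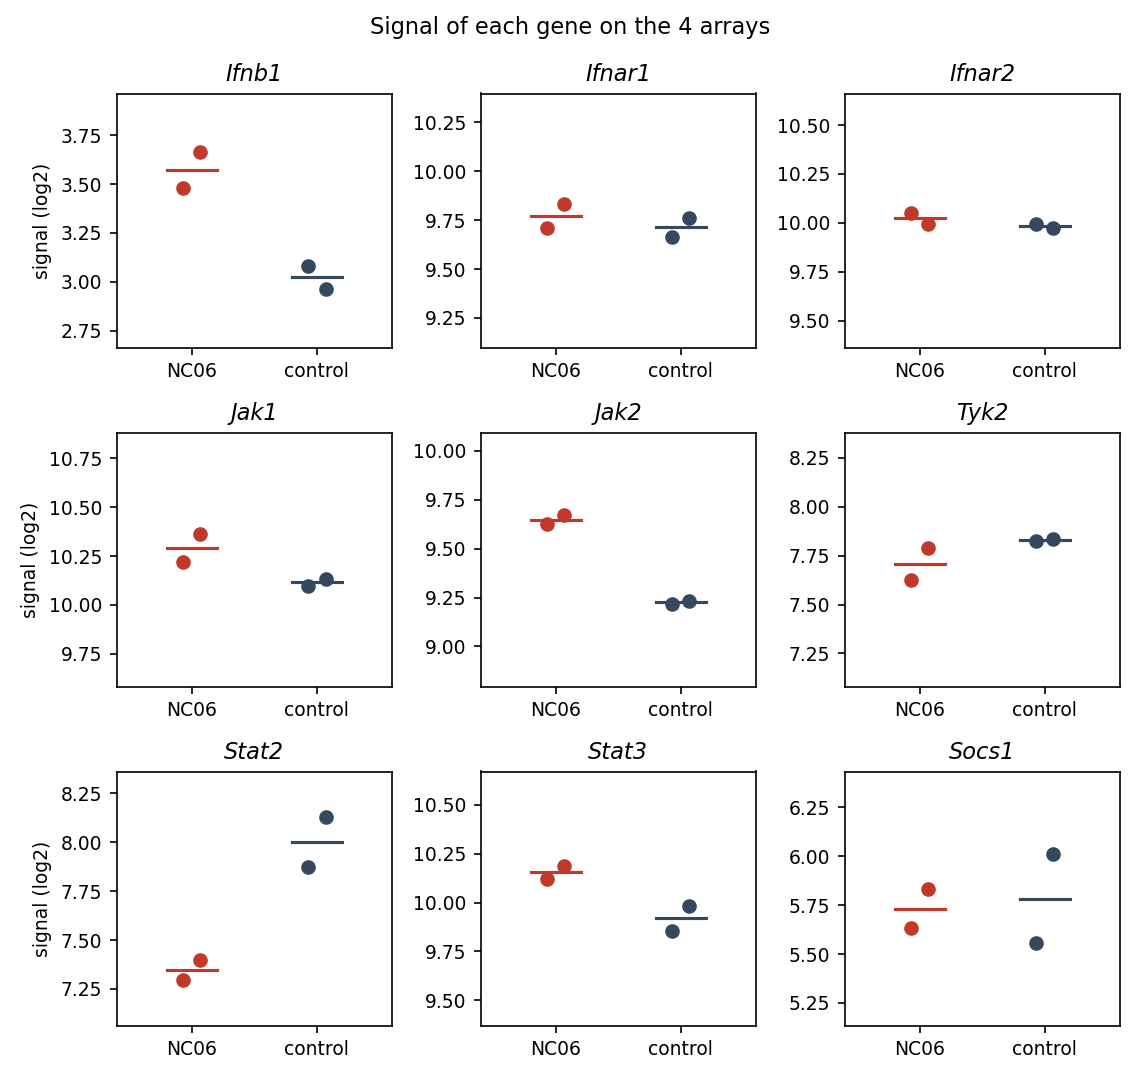
Log2 signal of each of the 9 genes on the 2 NC06 arrays (left, red) and the 2 control arrays (right, dark), with each group's mean as a line, on axes of equal height. The points of Stat2, Jak2 and Ifnb1 are the farthest apart between the groups, while those of Ifnar1 and Socs1 overlap.

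**Figure D2:**
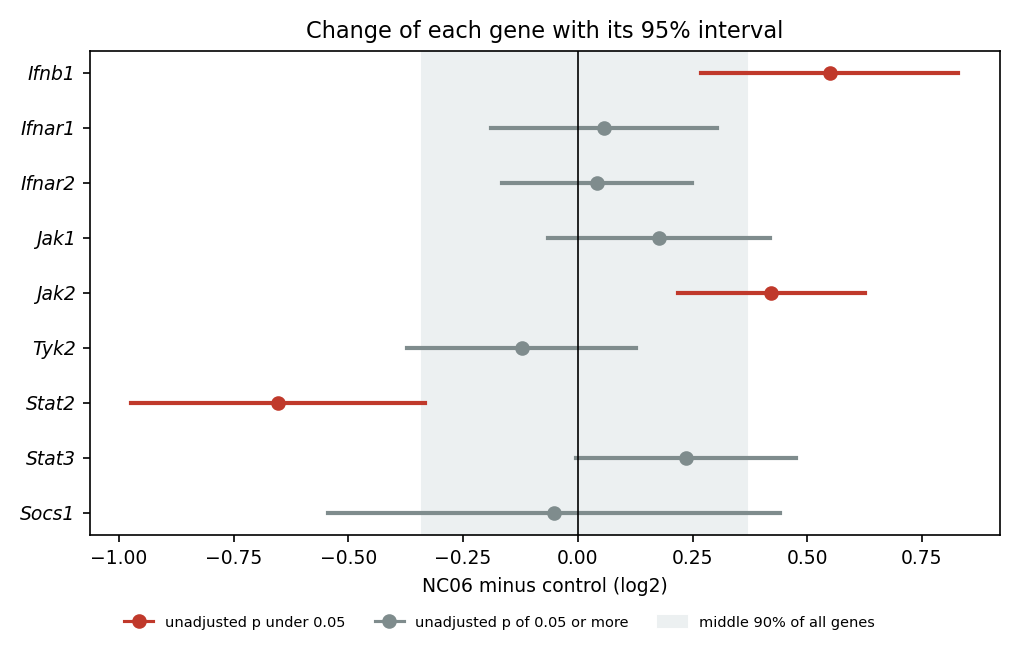
Difference of NC06 minus control in log2 for each of the 9 genes (points) with its 95% interval from the limma fit (lines), red where the unadjusted p was under 0.05. The shaded band holds the differences of all genes between their 5th percentile, -0.34, and their 95th, 0.37, and the points of Stat2, Jak2 and Ifnb1 lie outside it.

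Stat2 encodes the STAT that is specific to interferons of types I and III. Its probe set, 17238367, read 7.30 and 7.40 log2 in NC06 cells, against 7.87 and 8.13 log2 in control cells. The groups did not overlap, and the gap between them was 0.47 log2, wider than the difference of 0.26 log2 between the control arrays. The mean was 7.35 ± 0.072 on the NC06 arrays and 8.0 ± 0.18 on the control arrays (SD, n = 2 each). The difference was -0.65 log2 (SE 0.12, 95% interval -0.97 to -0.33), or 0.636-fold with an interval of 0.510 to 0.794. Its adjusted p in limma was 0.201, and 216 of the 26246 genes had as low or a lower moderated t, Stat2 included. The adjusted p of Stat2 was 0.0399 in limma when genes below the median brightness were left out, where 6.64% of the genes were called. It was 0.0120 with a variance prior that follows brightness, with robust fitting, where 5.56% were called.

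The genes whose profile over the 4 arrays was most like that of Stat2 were sought among 13122 brighter genes, as the distance between values centred on each gene's own mean. The nearest was Adar, an RNA-editing enzyme known to be induced by interferon, at a distance of 0.0597 log2. It read 8.30 and 8.42 in NC06 cells, against 8.86 and 9.07 in control cells. B3galt6, a galactosyltransferase of proteoglycan synthesis, followed at 0.0697, Ifi35, an interferon-induced protein, at 0.0747 and Dhcr7, a reductase late in cholesterol synthesis, at 0.0929. This likeness is a description over 4 arrays, in which the group difference sets most of the profile.

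The promoter windows are shown for Stat2, which was lower at an unadjusted p under 0.05 and holds a match to the interferon-stimulated response element, for Socs1, whose groups overlapped and which holds matches, and for Jak2, which was higher at that p and holds none. They are the 250 bases before the start in RefSeq on GRCm38.p6, 5′ to 3′ on the gene's strand, with matches in capitals. For Stat2 this is chr10:128270248-128270497 on the plus strand, for Socs1 chr16:10785537-10785786 on the minus strand and for Jak2 chr19:29251553-29251802 on the plus strand.
Stat2: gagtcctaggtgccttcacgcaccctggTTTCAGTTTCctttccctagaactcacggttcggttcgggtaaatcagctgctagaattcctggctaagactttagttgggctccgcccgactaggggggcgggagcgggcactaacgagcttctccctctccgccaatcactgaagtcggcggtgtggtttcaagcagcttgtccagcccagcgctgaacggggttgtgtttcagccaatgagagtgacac
Socs1: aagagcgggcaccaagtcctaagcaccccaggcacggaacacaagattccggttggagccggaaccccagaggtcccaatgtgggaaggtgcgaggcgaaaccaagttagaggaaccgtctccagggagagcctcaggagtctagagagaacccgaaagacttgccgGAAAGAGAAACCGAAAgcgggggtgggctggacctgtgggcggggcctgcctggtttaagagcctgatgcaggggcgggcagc
Jak2: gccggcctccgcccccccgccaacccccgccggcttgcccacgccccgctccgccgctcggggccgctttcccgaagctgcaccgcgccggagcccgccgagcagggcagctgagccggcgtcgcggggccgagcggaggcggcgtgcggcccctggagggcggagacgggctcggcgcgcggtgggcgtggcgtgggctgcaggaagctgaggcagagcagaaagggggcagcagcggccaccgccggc
The response element was searched as GAAA, any 2 bases and GAAA again, on both strands, in these bases and the 50 after the start. Stat2 held 1 match, on the minus strand, from 222 to 213 bases before the start, so the capitals show its reverse complement. Socs1 held 2 matches that overlap each other, the first beginning 83 and the second 77 bases before the start. The other 7 genes held 0, and 3.44% of 32851 promoter windows of the same length held at least 1. A gamma-activated sequence, searched as TTCNNNGAA, which reads the same on both strands, was found once in Ifnar1 and once in Ifnar2, in 0 of the other 7 and in 8.30% of all windows. These matches describe the letters only, and other spacings were not searched.

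Ifnb1, the gene of the ligand, was dim. Its probe set, 17427064, read 3.48 and 3.66 log2 in NC06 cells, against 3.08 and 2.96 log2 in control cells. On 3 of the 4 arrays it was below the lower quartile of all probe sets, which was 3.57 on both NC06 arrays, against 3.53 and 3.51 in control samples. Both NC06 values lay above both control values. The difference was 0.55 log2 with a 95% interval from 0.27 to 0.83 (SE 0.10), or 1.46-fold, and its adjusted p in limma was 0.203. No background level comes with these values, so how much of this signal stands above background is not known, and the size of the difference is uncertain. Of 18 other interferon genes measured, of 20 listed, 0 were higher and 0 lower at an unadjusted p under 0.05, and their differences ran from -0.20 to 0.25 log2. The 2 with the smallest p were Ifng, which encodes interferon gamma, at 0.21 and Ifnl2, of the lambda interferons, at 0.25. Only 7 of the 18 read above the array median on all arrays. The interferon alpha genes are near-identical copies, and their probe sets may share signal.

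The receptor chains, which bind the ligand at the cell surface, had differences whose intervals span 0. Ifnar1 read 9.71 and 9.83 log2 in NC06 cells, against 9.66 and 9.76 log2 in control cells, and the groups overlapped. Its difference was 0.057 log2 with a 95% interval from -0.19 to 0.30. Ifnar2 read 10.05 and 9.99 log2 in NC06 cells, against 9.99 and 9.97 log2 in control cells. These groups were separated by only 0.0033 log2, and the difference was 0.041 log2 with an interval from -0.17 to 0.25. As fold changes the intervals run from 0.877 to 1.23 for Ifnar1 and from 0.892 to 1.19 for Ifnar2. They cover only the spread among these 4 samples, possibly a technical one, and do not exclude a larger change between separate cultures. In limma the adjusted p was 0.805 for Ifnar1 and 0.835 for Ifnar2.

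Among the kinases, Jak2 stood apart. Its probe set, 17358517, read 9.63 and 9.67 log2 in NC06 cells, against 9.22 and 9.23 log2 in control cells. The gap between the groups was 0.39 log2, while the arrays differed by 0.044 within the NC06 group and by 0.015 within the control group. The mean was 9.65 ± 0.031 on the NC06 arrays and 9.23 ± 0.010 on the control arrays (SD, n = 2 each). The difference of 0.42 log2 (SE 0.076) had a 95% interval from 0.22 to 0.63, or 1.34-fold with an interval of 1.16 to 1.54. Its adjusted p in limma was 0.195, and it ranked 529 of 26246 genes by p. In limma the adjusted p of Jak2 was 0.0320 without genes below the median brightness and 0.00426 with the prior that follows brightness, over the same backgrounds as for Stat2. Both settings called 2 genes, Stat2 and Jak2, of the 8 that the filter left and of all 9 with the prior.

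Jak1 read 10.22 and 10.37 log2 in NC06 cells, against 10.10 and 10.13 log2 in control cells. Both NC06 values were higher, and the gap of 0.087 log2 was narrower than the 0.15 log2 between the NC06 arrays. The difference was 0.18 log2 with an interval from -0.065 to 0.42. Tyk2 read 7.63 and 7.79 log2 in NC06 cells, against 7.82 and 7.84 log2 in control cells. Both NC06 values were lower, by a gap of 0.035 log2, and the difference was -0.12 log2 with an interval from -0.37 to 0.13. In limma the adjusted p was 0.427 for Jak1 and 0.575 for Tyk2. The difference of Jak2 exceeded that of Jak1 by 0.25 log2 and that of Tyk2 by 0.54 log2, and these excesses were not tested.

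Stat3 read 10.12 and 10.19 log2 in NC06 cells, against 9.85 and 9.98 log2 in control cells. Both NC06 values were higher, by a gap of 0.14 log2 against 0.13 log2 between the control arrays. The difference was 0.24 log2 (SE 0.089), or 1.18-fold, with a 95% interval from -0.0031 to 0.48 and an adjusted p in limma of 0.332. Its direction was opposite to that of Stat2, and the difference of Stat3 exceeded that of Stat2 by 0.89 log2, which was not tested. Socs1, the feedback inhibitor, read 5.63 and 5.83 log2 in NC06 cells, against 5.56 and 6.01 log2 in control cells. The control arrays enclosed both NC06 arrays. The difference was -0.052 log2 with an interval from -0.55 to 0.44, the widest of the 9 genes, and its adjusted p in limma was 0.924.

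The authors' deposited table gave the same differences as ratios of NC06 over control. In the authors' deposited table the ratio was 0.671 and 0.603 for the numbered pairs in Stat2, 1.33 and 1.35 in Jak2 and 1.32 and 1.62 in Ifnb1. Its unadjusted p was 0.0416 for Stat2, 0.00298 for Jak2 and 0.0368 for Ifnb1, the only 3 of the 9 genes under 0.05 in the authors' deposited table, against 13.6% of genes there.

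Related genes were read as lists, chosen with earlier results of these data known, and no member of any list passed an adjusted p of 0.05 in limma over all genes. At an unadjusted p under 0.05, 7.79% of all genes were higher and 7.52% lower. The lowest median was that of the 19 interferon-stimulated genes, which the STAT2 complex is known to induce. Of them 18 were lower and 0 higher at that p, all 19 had both NC06 arrays below both control arrays, against 24.4% of all genes, and their median was -1.22 log2. Rtp4, a receptor-transporting protein, read 7.33 and 7.24 log2 in NC06 cells, against 9.29 and 9.49 log2 in control cells, and Ifi44, an interferon-induced gene of uncertain function, read 10.36 and 10.42 in NC06 cells, against 12.01 and 12.16 in control cells. Both had an adjusted p of 0.054 in limma, and Ifit3 at -0.30 was the 1 member with a p above 0.05.

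Among 5 other JAKs, STATs and the partner of STAT2, of 6 listed, 1 was lower and 0 higher at an unadjusted p under 0.05. The one was Irf9, the DNA-binding part of the STAT2 complex, which read 7.23 and 7.28 log2 in NC06 cells, against 8.34 and 8.52 log2 in control cells. Its difference was -1.18 log2 (SE 0.099), with an adjusted p in limma of 0.079. Stat6, which follows the interleukin 4 receptor, had the next smallest p, at 0.14 log2. The median of this list was -0.050 log2.

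Of 16 negative regulators of JAK-STAT signalling, 2 were lower and 1 higher at an unadjusted p under 0.05, with a median of -0.046 log2. Usp18, a protease that removes ISG15 and blocks the interferon receptor, read 9.16 and 9.23 log2 in NC06 cells, against 10.15 and 10.25 log2 in control cells. It was at 0.499-fold (SE 0.085 on the log2 scale), and it is itself known as an interferon-induced gene. Ptpn11, which encodes the phosphatase SHP2, was at -0.26. The one that was higher was Ptprc, which encodes CD45 and is also a myeloid marker, at 0.28.

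Of 15 other receptor chains listed as using JAK kinases, 4 were higher and 1 lower at an unadjusted p under 0.05, with a median of 0.084 log2. The list also holds Csf1r, a receptor with a kinase of its own, at 0.083 log2. Csf2rb, the shared beta chain that carries JAK2 in the GM-CSF receptor, read 7.44 and 7.47 log2 in NC06 cells, against 6.73 and 6.65 log2 in control cells, a difference of 0.77 log2 (SE 0.080). Lifr, the receptor of leukemia inhibitory factor, was the lower one, at -0.70 log2. The other 3 that were higher, named after their values were seen, were Csf2ra at 0.73, Il4ra at 0.45 and Ifngr2, a chain of the interferon gamma receptor that carries JAK2, at 0.30.

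Of 10 genes known as STAT3 targets, 4 were higher and 0 lower at an unadjusted p under 0.05, with a median of 0.19 log2. S100a8, a calcium-binding protein of myeloid cells, was at 1.48 log2 and Lcn2, which encodes lipocalin, at 1.25 log2. S100a8 and S100a9 are also among the neutrophil markers whose summed signal differed between the groups, and S100a9 was at -0.22. Of 12 sensors and adaptors upstream of Ifnb1, 2 were higher and 3 lower at that p, with a median of -0.072 log2. Ifih1, a cytosolic sensor of double-stranded RNA that interferon also induces, was at -0.93 log2, and Tlr4, the receptor of lipopolysaccharide, at 0.41 log2. One gene, Ddx58, belongs both to this list and to the interferon-stimulated genes.

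**Figure D3:**
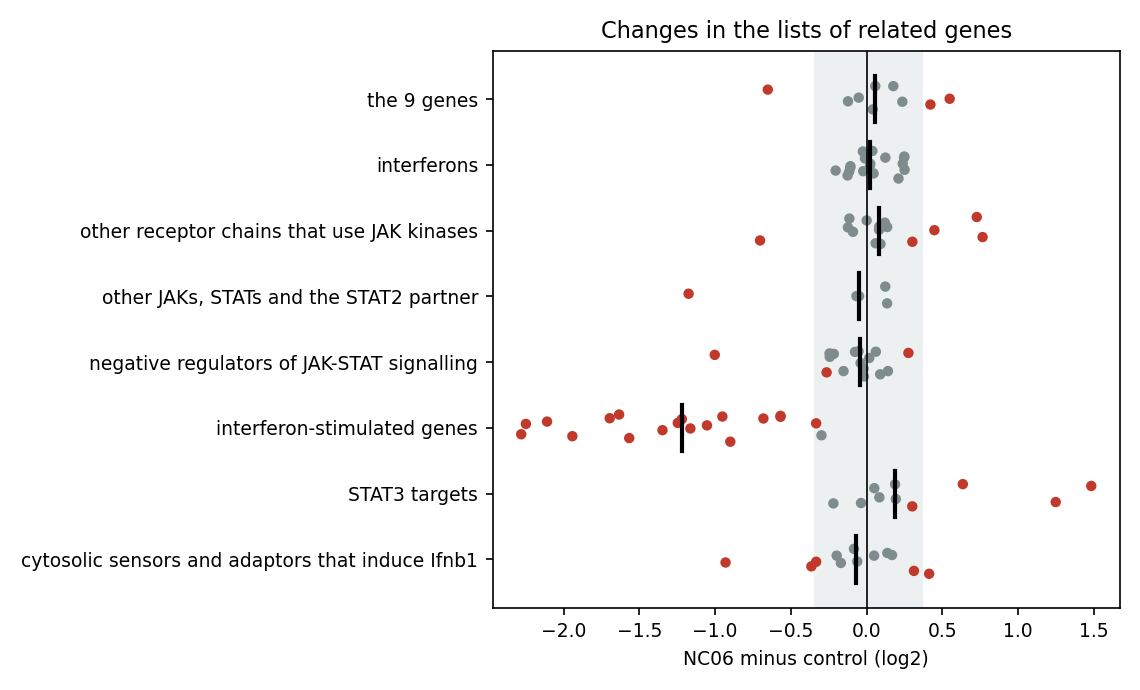
Differences of NC06 minus control in log2 for the 9 genes and for each list of related genes, 1 point a gene, red where the unadjusted p in limma was under 0.05, with the list's median as a bar. The shaded band runs from the 5th to the 95th percentile of all genes. The interferon-stimulated genes lie on the lower side with a median of -1.22, and the other lists have medians from -0.072 to 0.19.

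**Figure D4:**
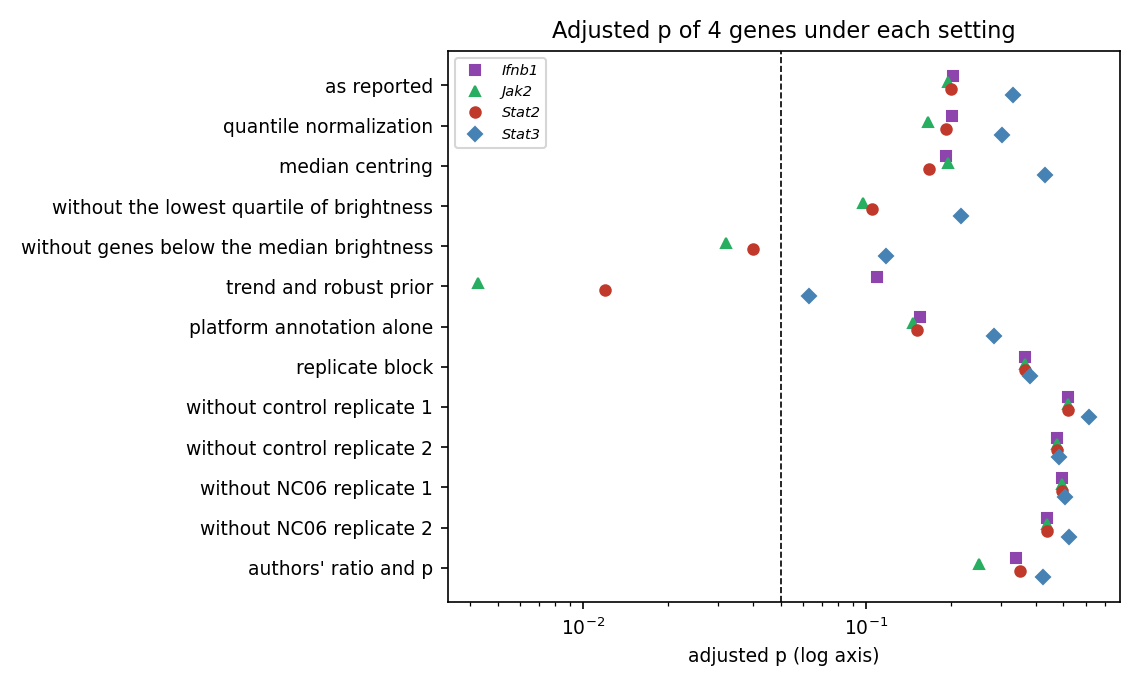
Adjusted p, on a log axis, of Stat2, Jak2, Ifnb1 and Stat3 in the fit as reported and under 12 other settings, with a dashed line at 0.05. Stat2 and Jak2 lie left of the line without genes below the median brightness and with the trend and robust prior, and right of it elsewhere. Ifnb1 was left out by both filters on brightness.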

How the data were processed

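J774M RNA was measured on 4 whole-transcript arrays, grouped by sample title. The authors deposited log2 signals for each probe set, and the submitters' processing notes name Partek. Its version, the background correction, scaling, summarization and genome build are not given in the sources used here. Every deposited ratio and p-value comes from the authors' table. Its ratios equalled differences of the log2 values within 8.8e-05, which settles scale and direction.

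The platform annotation named 1 gene for 23521 of 41345 probe sets and several for 1820, and 16004 were unlisted. Of the unlisted, 4311 took the symbol of the authors' table where the RefSeq table of GRCm38.p6 held it. For genes with several probe sets the brightest was used. Differences were tested with limma 3.58.1 in R 4.3.3 (lmFit and eBayes, two-sided), with Benjamini-Hochberg adjustment over 26246 genes and a threshold of 0.05, with 2 residual and 2.36 prior degrees of freedom. Intervals are 95%. Figures and joins used Python 3.11.15, pandas 2.3.3 and matplotlib 3.10.9.

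The 9 genes and the lists were chosen with earlier results of these data known. All 9 genes are named, then the 2 members of each list with the smallest p and the 5 nearest profiles to Stat2 in brighter genes, of which 1 is not reported here. Other names were added after their values were seen. Alternatives were another normalization, brightness filters, another variance prior, other probe set and naming rules, a block for the replicate number, omission of each array, the authors' ratios and p-values, and a threshold of 0.10. The number of arrays limits the precision.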

Additional observations from a re-analysis of the deposited data

How the results depend on the processing

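The direction of Stat2, Jak2, Ifnb1, Jak1, Tyk2 and Stat3 was the same under every alternative run. Stat2 (-0.65 log2) and Jak2 (0.42 log2) passed the adjusted threshold in limma without genes below the median brightness (0.0399 and 0.0320) and with the trend and robust prior (0.0120 and 0.00426), and the range over all alternatives was 0.0120 to 0.519 for Stat2 and 0.00426 to 0.519 for Jak2. In the first, fewer genes are adjusted over and the variance prior is fitted again. The unadjusted p in limma also fell there, from 0.00418 to 0.00178 for Stat2 and from 0.00394 to 0.000937 for Jak2. Ifnb1 has no value under either brightness filter, which leave it out. Leaving out 1 array at a time gave -0.78 to -0.52 for Stat2, 0.40 to 0.44 for Jak2 and 0.46 to 0.64 for Ifnb1. It gave 0.10 to 0.25 for Jak1 and -0.20 to -0.041 for Tyk2, with the lowest value of both without NC06 replicate 2 and the highest without NC06 replicate 1. After median centring Jak1 was at 0.10 and Tyk2 at -0.20 log2. Small differences turned in sign. Ifnar1 was at -0.016 and Ifnar2 at -0.032 log2 after median centring. Leaving out 1 array at a time gave -0.0051 to 0.12 for Ifnar1, negative without NC06 replicate 2, 0.013 (without NC06 replicate 1) to 0.070 (without NC06 replicate 2) for Ifnar2, and -0.28 to 0.17 for Socs1, positive at 0.17 without control replicate 2 and at 0.049 without NC06 replicate 1. Median centring subtracts each array's own median, which was higher on both NC06 arrays than on both control arrays, and so lowers every difference by the same amount. The cause of the spread between arrays was not tested.

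Over all genes the fit called 0 higher and 0 lower, with 4018 at an unadjusted p under 0.05. It called 4 higher after quantile normalization, 3 after median centring, and 2 each with the mean or the dimmest probe set. It called 90 higher and 45 lower without the lowest quartile of brightness, 470 and 401 without genes below the median brightness, 640 and 819 with the trend and robust prior, 47 and 16 with the platform annotation alone, and 77 and 40 at an adjusted p under 0.10. Leaving out 1 array at a time, the unadjusted count ran from 2506 without control replicate 1 to 2980 without NC06 replicate 2, and was 2631 without NC06 replicate 1.

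Before any brightness filter the lists held, in the order below, 19, 15, 5, 16, 10 and 12 measured genes. In either direction, 6.64% of 13123 genes were called without those below the median, and 5.56% of 26246 with the trend and robust prior. The interferon-stimulated genes called lower numbered 9 without the lowest quartile, 14 without genes below the median and 16 with the trend and robust prior. They numbered 5 with the platform annotation alone and 9 at 0.10. Other receptor chains called higher numbered 1, 2 and 4 in the first 3 of these settings and 1 at 0.10, and 1 was called lower in each of those 3. Of the other JAKs, STATs and the STAT2 partner 1 was called lower under all 5. Of the negative regulators 1 was called lower under 4 of them and 2 with the trend and robust prior, which also called 1 higher. STAT3 targets called higher numbered 2, 3, 3, 2 and 2. Of the sensors and adaptors 1 was called higher in both settings that called Stat2, and 1, 2 and 2 lower in the first 3. After median centring the median was -0.12 log2 for the other JAKs, STATs and the STAT2 partner, -0.12 for the negative regulators, 0.010 for the other receptor chains, 0.12 for the STAT3 targets and -0.15 for the sensors and adaptors. Leaving out 1 array at a time, the first of these medians ran from -0.10 to 0.066, and it was 0.011 without NC06 replicate 1. The median of the STAT3 targets was 0.11 without control replicate 1, 0.30 without control replicate 2 and 0.30 without genes below the median brightness, and that of the sensors and adaptors was -0.14 without control replicate 1 and -0.0038 without control replicate 2. The deviations of same-numbered arrays from their group means hardly correlated across genes, at 0.0325, and such arrays share only a number. With the replicate number as a block the adjusted p was 0.365 for Stat2, Jak2 and Ifnb1, with a change of 0.42 log2 in Jak2, 0 genes were called, and no call differed.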
